A study of Mus musculus with 2 samples.

Results

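Chemokines are small secreted proteins that guide leukocytes along concentration gradients through receptors on the leukocyte surface. The genes examined here are the chemokine ligand genes, chosen by name as every gene of the array called Ccl, Cxcl, Cx3cl or Xcl with a number, and all of their probes were taken. This gave 36 genes with 50 probes, among 37074 gene names on the array. All 36 names are current RefSeq symbols.

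RNA came from primary hepatocytes cultured for 24 h after seeding, with 1 array for each of 2 genotypes of mice on a C57BL/6 background. The *Drp1*LiKO mice carried Alb-Cre as Tg/+ and *Drp1* flox/flox, so that *Drp1*, which encodes the dynamin-related protein of mitochondrial fission, is deleted by a Cre driven by the albumin promoter of hepatocytes. The control, which GEO's labels call wild type, was a sibling with *Drp1* flox/flox and no Cre, so both genotypes shared the floxed allele. The labels name no agent for either culture. The age and sex of these mice and how many stood behind each array are not given in the sources used here. Cells were released with collagenase, pelleted at low speed and freed of floating cells by a change of medium, a preparation that has no sorting step for other liver cells. Since the RNA is of a whole culture, fewer cells of a type and less RNA per cell cannot be told apart.

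No genotype had a replicate array, so no test was run and no p-value is given. Each difference therefore describes these 2 arrays, which shared 1 slide and 1 scan, and the number of arrays limits the precision. Signals below are linear intensities in arbitrary units after subtraction of background, as the scanner software gave them. Log2 ratios are *Drp1*LiKO minus control after scaling each array to its 75th percentile, a step that takes 0.18 off the log2 ratio of the signals. A gene was read from its brightest probe. It was called higher or lower where its log2 ratio passed a Z score of 2 over the 30275 probes kept, at 1.30 (2.46-fold) upward or -1.31 (2.48-fold) downward. The error given with a ratio is the SD expected from noise between spots of 1 array, which holds no variation between mice or cultures. Where a signal was not well above background on 1 array, the ratio is a bound.

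The targeted gene, listed as *Dnm1l*, gave a signal of 2602 in control cells and 1217 in *Drp1*LiKO cells at its brighter probe. Its log2 ratio was -1.28 (spot noise SD 0.05) with a Z score of -1.95, just short of the threshold. Its other probe gave 22.8 and 20.9, a log2 ratio of -0.31 (spot noise SD 0.27). Whether either probe lies in the deleted part is not given in the sources used here. Of 16 hepatocyte markers on the array, 15 were well above background on each array, and the brightest, *Alb*, gave 219613 and 266703. The signals thus fit the labelled cell type, but markers of other liver cells were also present, as described below beside the ligands.

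Chemokines are grouped by the spacing of their first cysteines, which gives the CC, CXC, CX3C and C families, and most of them sit in clusters of related genes. Some are made at steady levels and place cells within tissues, whereas others are switched on by inflammatory signals through NF-κB and by interferons through STAT and IRF factors. In the liver, hepatocytes, Kupffer cells, endothelial cells and stellate cells can all make them, and they draw neutrophils, monocytes and lymphocytes into injured tissue.

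The sequences upstream of 5 ligand genes show how the elements bound by these factors lie before genes that differed in opposite directions. They are RefSeq sequences of GRCm38.p6, written 5′ to 3′ on the strand of the gene and ending at the base before the start of transcription. Capitals mark matches to GGGNNNTTCC, a simplified pattern for a κB site of NF-κB, on either strand. In *Cxcl10* they also mark a match to GAAANNGAAA, the core of the interferon-stimulated response element (ISRE). Sites with other letters were not marked or counted. *Cxcl10* (chr5:92348890-92349139, minus strand) was called higher, *Ccl20* (chr1:83116516-83116765, plus strand) was called lower, and *Cxcl1* (chr5:90891125-90891244), *Cxcl2* (chr5:90903779-90903898) and *Cxcl3* (chr5:90785981-90786100), all on the plus strand, are neighbors of which only *Cxcl3* was called.
Cxcl10: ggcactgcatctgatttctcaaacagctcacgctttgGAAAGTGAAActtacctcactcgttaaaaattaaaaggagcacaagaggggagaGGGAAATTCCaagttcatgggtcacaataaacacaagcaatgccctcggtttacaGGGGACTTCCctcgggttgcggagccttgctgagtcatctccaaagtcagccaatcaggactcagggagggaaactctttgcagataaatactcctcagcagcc
Ccl20: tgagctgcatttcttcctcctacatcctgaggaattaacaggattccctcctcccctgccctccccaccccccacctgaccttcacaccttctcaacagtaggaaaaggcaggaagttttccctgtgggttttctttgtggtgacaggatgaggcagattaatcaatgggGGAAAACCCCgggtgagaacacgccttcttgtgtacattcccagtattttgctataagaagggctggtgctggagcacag
Cxcl1: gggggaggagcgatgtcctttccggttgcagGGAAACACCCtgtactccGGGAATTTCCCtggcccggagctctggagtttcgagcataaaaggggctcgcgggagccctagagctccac
Cxcl2: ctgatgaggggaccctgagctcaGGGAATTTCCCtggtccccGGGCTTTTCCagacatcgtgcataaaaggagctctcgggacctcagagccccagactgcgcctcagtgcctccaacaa
Cxcl3: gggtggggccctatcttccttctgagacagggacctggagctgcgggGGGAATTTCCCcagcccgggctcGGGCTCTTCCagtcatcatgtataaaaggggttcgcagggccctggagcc

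In *Cxcl10* the ISRE match GAAAGTGAAA began 213 bases before the start, and 2 κB matches, GGGAAATTCC and GGGGACTTCC, began 159 and 104 bases before it. *Ccl20* held 1 κB match, GGAAAACCCC, which is the form on the opposite strand, from 80 bases before the start. The same 10 letters, GGGAATTTCC, stood in *Cxcl1*, *Cxcl2* and *Cxcl3*, beginning 71, 97 and 73 bases before the start, and overlapped there with their own reverse form. The 3 neighbors thus carried the same match, although only *Cxcl3* was called. Over the 25 member genes with a promoter window, 7 held a κB match in the 250 bases upstream, and 4.65% of all 32851 windows did. By call, a κB match stood before 2 of 6 genes called higher, 1 of 3 called lower, 4 of 8 detected but not called, and 0 of 8 not well above background. *Ccl4*, *Ccl5* and *Cxcl5*, called higher, and *Ccl2*, called lower, had no window, so this tally leaves them out. ISRE matches stood before 3 of the 25 genes, *Cxcl10*, *Cxcl14* and *Ccl19*, and in 2.98% of all windows. Matches to TTCNNNGAA, the GAS element of STAT factors, stood before 2 genes (7.02% of all windows) and matches to TGANTCA, the AP-1 site, before 3 (6.75% of all windows). These matches describe letters and do not show binding.

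Of the 36 ligand genes, 25 passed the background limit on at least 1 array. In control cells 22 did so, and in *Drp1*LiKO cells 21. Both arrays had a signal well above background for 18 genes, but for *Ccl1*, *Cxcl2*, *Cxcl13* and *Cxcl17* only the control array did, and for *Ccl3*, *Cxcl5* and *Ccl28* only the *Drp1*LiKO array. The other 11 genes were not well above background on either array. They were the eotaxins *Ccl11*, *Ccl24* and *Ccl26*, which act through CCR3 on eosinophils, the CCR4 ligands *Ccl17* and *Ccl22*, the CCR7 ligands *Ccl19* and *Ccl21a*, the MCP genes *Ccl8* and *Ccl12*, the lung chemokine gene *Cxcl15*, and *Xcl1*, a product of T and NK cells. Both genotypes therefore gave signals for inflammatory ligands of neutrophils, monocytes and effector T cells. The eotaxins and the CCR4 and CCR7 ligands named here were below the limit of the array.

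**Figure D1:**
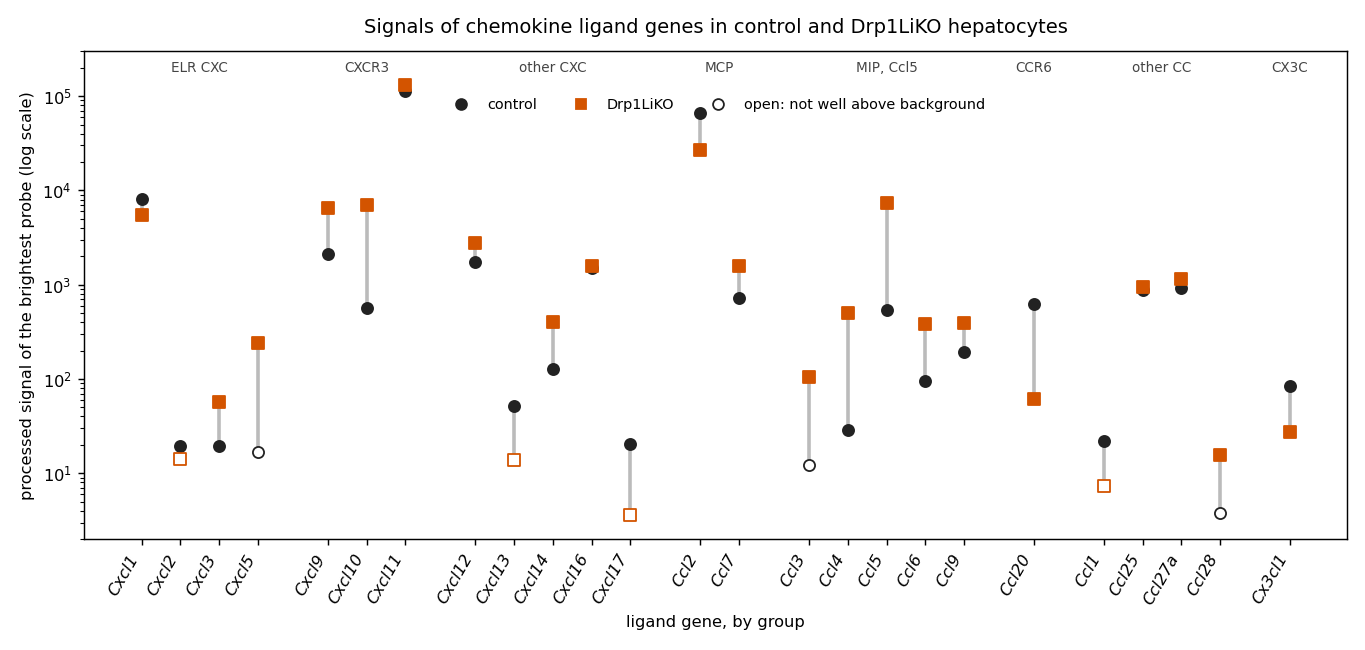
Processed signal (log scale, arbitrary units) of the brightest probe of each of the 25 detected ligand genes in control (circles) and Drp1LiKO cells (squares), by group, with open symbols not well above background. Ccl5 and Cxcl10 lie at 534 and 572 in control and at 7304 and 7053 in Drp1LiKO cells, while Ccl20 lies at 627 and 61.9.

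Among the 25 detected genes, 9 (36%) were called higher and 4 (16%) lower in *Drp1*LiKO cells. Over all 20165 genes kept, 3.5% were called higher, 2.81% lower and 6.3% in either direction, against 13 (52%) of the ligands. Counted by probes, 10 of the 35 ligand probes kept were called higher and 5 lower, against 2.94%, 2.49% and together 5.43% of all probes kept. Genes seen on 1 array only could be called in 1 direction only. The 18 ligands measured on both arrays are therefore the plainer count. Of these, 7 were called higher and 3 lower, together 55.6%, and of the 17735 genes of the array measured on both, 4.05% were called. The median log2 ratio of the ligands with a ratio was 0.30, and that of all genes was -0.04. The size of the ratios stood further apart than their median, with a median absolute log2 ratio of 1.40 for ligands and 0.25 for all genes. The ratios ran from -3.52 for *Ccl20* to 3.92 for *Ccl4*. The calls of *Ccl2*, *Cxcl3*, *Cxcl9*, *Cxcl13* and *Cxcl14* were lost with the normalized intensities that the authors deposited, where the log2 ratio of *Ccl2* was still -1.47. The log2 ratios of *Ccl2*, *Ccl6*, *Cxcl3*, *Cxcl9* and *Cxcl14* were the same when dim signals were used without a floor, but their calls were lost because the limits moved to 1.84 and -1.75. With normexp background correction, which adds an offset of 50 to every signal, the log2 ratios of dim genes were smaller, at 0.95 for *Ccl3*, 2.51 for *Ccl4*, 1.72 for *Cxcl5*, -2.67 for *Ccl20* and -0.86 for *Cx3cl1*. The bounds given below therefore hold for the processed signals only.

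**Figure D2:**
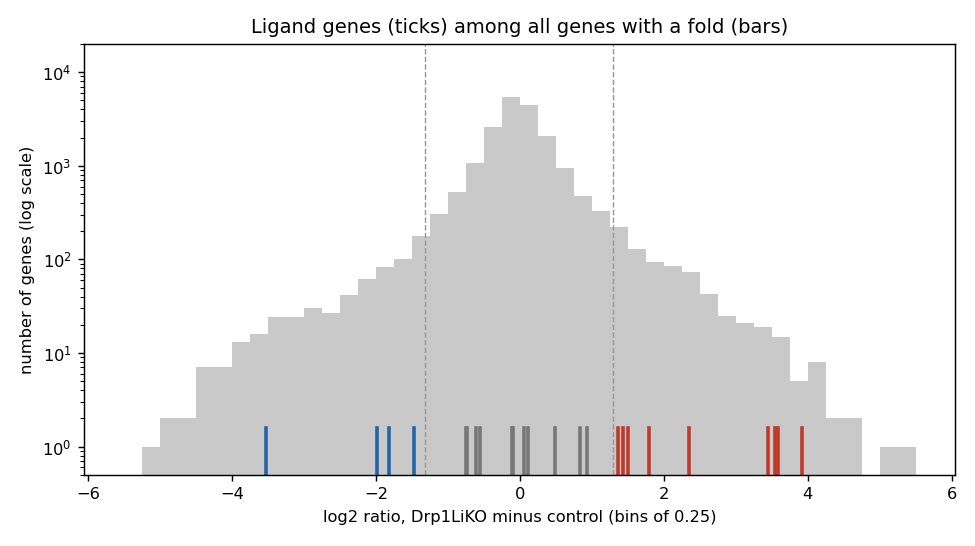
Number of genes (log scale) by log2 ratio of Drp1LiKO minus control, in bins of 0.25, for the 19584 genes with a ratio, with ticks at the base for the 24 ligand genes with one. Dashed lines mark the call limits of -1.31 and 1.30, which 9 red ticks pass upward and 4 blue ticks downward.

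The inflammatory CC ligands *Ccl3*, *Ccl4*, *Ccl5*, *Ccl6* and *Ccl9*, which attract monocytes, macrophages and effector T cells, were higher throughout in *Drp1*LiKO cells. All 5 had a positive log2 ratio and 4 of them were called. *Ccl4* gave a signal of 28.8 in control cells and 495 in *Drp1*LiKO cells, 15.1-fold higher, with a log2 ratio of 3.92 (spot noise SD 0.18). The other *Ccl4* probe gave 21.4 and 305, a log2 ratio of 3.65, so both probes of the gene showed a difference of similar size. *Ccl5*, which attracts T cells and monocytes, gave 534 and 7304, 12.0-fold higher (log2 ratio 3.59, spot noise SD 0.12). *Ccl3*, the close relative and neighbor of *Ccl4*, gave 12.1, not well above background, and 106, at least 5.12-fold higher. *Ccl6* and *Ccl9* are rodent ligands of CCR1 that myeloid cells make. *Ccl6* gave 96.1 and 378, 3.47-fold higher (log2 ratio 1.79, spot noise SD 0.14). *Ccl9* gave 194 and 393, 1.78-fold higher (log2 ratio 0.83, spot noise SD 0.14), short of the threshold.

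Markers of Kupffer cells and macrophages, cells that make these ligands, moved in the same direction on these arrays. Of 17 markers, 11 were well above background in the control and 15 in the *Drp1*LiKO culture. All 15 were brighter in *Drp1*LiKO cells and 13 were called higher, against 3.5% of all genes. The log2 ratios ran from 0.73 to 3.45 with a median of 2.32. *Clec4f*, *Vsig4*, *Fcgr1* and *Cybb* passed the limit on the *Drp1*LiKO array only, so their ratios are bounds and could only come out higher. The summed signal of the 17 markers was 5070 in control cells and 22108 in *Drp1*LiKO cells, which after scaling is a log2 ratio of 1.94. The brightest on the *Drp1*LiKO array were *Cd68*, with 2346 and 9593, and *Lyz2*, with 829 and 4464. The Kupffer cell marker *Timd4* and the macrophage marker *Cd163* were not well above background on either array. The ratios of *Ccl4* and *Ccl5* lay above the highest marker ratio and those of *Ccl6* and *Ccl9* below the marker median. The part of these cells in the ligand signals was not tested.

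The interferon-induced ligands of CXCR3, which attract activated T and NK cells, split between 2 genes that were called higher and *Cxcl11*. *Cxcl10* gave 572 in control cells and 7053 in *Drp1*LiKO cells, 10.9-fold higher (log2 ratio 3.44, spot noise SD 0.12). Another *Cxcl10* probe, of another transcript record (AK156907), gave 4.13, not well above background, and 29.4, a log2 ratio of at least 0.51. The median over the probes of *Cxcl10*, 1.97, is therefore also a bound. *Cxcl9* gave 2127 and 6550, 2.71-fold higher (log2 ratio 1.44, spot noise SD 0.05), with a Z score of 2.22. Both were therefore called higher, *Cxcl9* only just.

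*Cxcl11* gave 112165 and 132199, a log2 ratio of 0.05 (spot noise SD 0.05), and its other probe gave 1767 and 2186, a log2 ratio of 0.12. Both probes were far from the threshold. In RefSeq *Cxcl11* of the reference mouse, a C57BL/6 strain, is a transcribed pseudogene. The brighter probe shares a run of at least 16 bases, on either strand, with 23 probes of 23 other genes, all of them passing the background limit on both arrays (median signals 1199 and 1153). The run found in most of them, in 11 probes, is CTACACAGAGAAACCC, which resembles the B1 family of short repeats of the mouse genome. The other *Cxcl11* probe shares a run with 4 probes, and of the remaining 48 member probes 7 share one, each with 1 probe. The values of *Cxcl11* are therefore uncertain as a measure of this gene, and the part of other transcripts in them was not tested.

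Of the genes that induce or transmit interferon signals, *Ifnb1* and *Stat2* were called higher and *Ifng*, *Irf9* and *Irf1* were not called. *Ifnb1*, which encodes interferon beta, gave 6.27, not well above background, and 93.3, a log2 ratio of at least 2.17, and was called higher. *Ifng* was not well above background on either array. *Stat2*, which transmits signals of type I interferon, gave 1230 and 3565 (log2 ratio 1.35), just past the threshold. *Irf9*, its partner, gave 1346 and 3047 (log2 ratio 1.00) and was not called. *Irf1*, a target of interferon that acts on *Cxcl9* and *Cxcl10*, gave 2021 and 2015 (log2 ratio -0.19).

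The CXC ligands with an ELR motif, which attract neutrophils through CXCR2, went in both directions. *Cxcl5* gave 16.9, not well above background, in control cells and 241 in *Drp1*LiKO cells, at least 11.6-fold higher. *Cxcl3* gave 19.6 and 57.5, 2.58-fold higher (log2 ratio 1.37, spot noise SD 0.28), with a Z score of 2.11. Its distance from the threshold was smaller than its spot noise. *Cxcl1*, a neutrophil attractant that hepatocytes can make, gave 8141 and 5504, 1.68-fold lower (log2 ratio -0.75, spot noise SD 0.05), and was not called. *Cxcl2* gave 19.4 and 14.1, the latter not well above background, at least 1.47-fold lower. Thus 2 genes of the group were called higher and 0 lower, and the pair not called lay below control. Of 9 neutrophil markers, 4 were well above background on at least 1 array and 1, *Ly6g*, was called higher (17.5, not well above background, and 76.9). *Camp* gave 19.4, not well above background, and 28.5, a log2 ratio of at least 0.38, and was not called. The other markers of the list, *S100a8*, *S100a9*, *Mpo*, *Ngp* and *Retnlg*, were not well above background on either array. The brightest of the list were *Csf3r*, with 16566 and 21213 (log2 ratio 0.17), and *Elane*, with 635 and 623 (log2 ratio -0.21). Marker probes were not checked for runs shared with other genes, and whether these signals come from neutrophils was not tested.

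The monocyte attractants of the MCP group, ligands of CCR2, differed in opposite directions in the 2 genes that were detected. *Ccl2* gave 66315 in control cells and 27168 in *Drp1*LiKO cells, 2.77-fold lower (log2 ratio -1.47, spot noise SD 0.05), with a Z score of -2.24. *Ccl7* gave 721 and 1562, 1.91-fold higher (log2 ratio 0.93, spot noise SD 0.12), and was not called. The probes of these neighbors lie about 10.0 kb apart on chromosome 11. *Ccl2* was therefore among the 4 ligands called lower, while the macrophage markers given above were higher.

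*Ccl20*, the ligand of CCR6 on T helper and B cells, had the lowest measured ratio of all ligands. It gave 627 in control cells and 61.9 in *Drp1*LiKO cells, 11.5-fold lower (log2 ratio -3.52, spot noise SD 0.25). *Cx3cl1*, a membrane-bound chemokine with a mucin stalk that holds monocytes and T cells, gave 84.7 and 27.3, 3.52-fold lower (log2 ratio -1.82, spot noise SD 0.25). A further *Cx3cl1* probe was not well above background on either array. *Cxcl13*, which attracts B cells to follicles through CXCR5, gave 52.1 and 14.0, the latter not well above background, at least 3.95-fold lower. Together with *Ccl2*, these were the ligands called lower, and each belongs to a different receptor group. *Ccl20*, *Cx3cl1* and *Cxcl13* have dim signals on the *Drp1*LiKO array, where the spot noise below a signal of 64 rests on 5 repeated probes only.

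**Figure D3:**
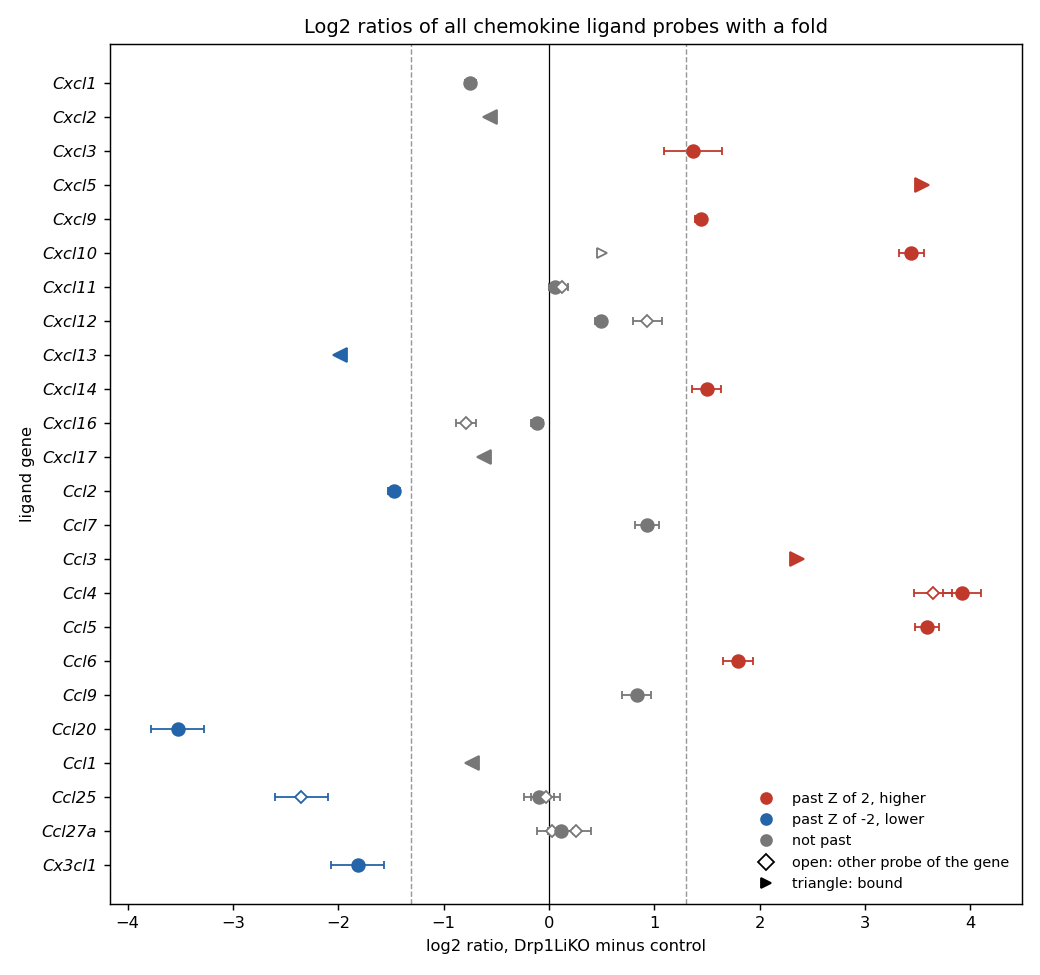
Log2 ratio of Drp1LiKO minus control for each ligand probe with a ratio, by gene, with bars for the spot noise SD, open diamonds for further probes of a gene and triangles for bounds. Dashed lines mark the call limits of -1.31 and 1.30, and the genes called higher run from 1.37 (Cxcl3) to 3.92 (Ccl4).

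The remaining CXC ligands were mostly not called. *Cxcl14*, which is made by epithelia and stroma, was the exception, with 126.5 and 406, 2.82-fold higher (log2 ratio 1.50, spot noise SD 0.14). Its other probe gave 14.5, not well above background, and 20.0, and no fold could be given. *Cxcl12*, the ligand of CXCR4 that retains cells in bone marrow, gave 1721 and 2748 (log2 ratio 0.49) at a probe of the transcript NM_001012477 and 77.9 and 169 (log2 ratio 0.93) at a probe of NM_021704. *Cxcl16*, a membrane-bound ligand of CXCR6, gave 1503 and 1577 (log2 ratio -0.11) and, at its other probe, 1257 and 826 (log2 ratio -0.79). *Cxcl17*, a mucosal chemokine, gave 20.2 and 3.58, the latter not well above background, at least 1.53-fold lower.

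Among the other CC ligands, which guide T cells to gut and skin, no gene was called by its brightest probe. *Ccl25*, the CCR9 ligand of thymus and gut, gave 880 and 937 (log2 ratio -0.09), and a further probe of the same transcript gave 71.3 and 79.1 (log2 ratio -0.03). A probe of its noncoding transcript NR_033527 gave 268 and 59.8, a log2 ratio of -2.35 (spot noise SD 0.25), and was called lower. That probe lies at chr8:4327833-4327892 in mm9, upstream of the brightest probe at chr8:4359916-4359975, and a probe of AK131875 was not well above background. *Ccl27a*, a skin ligand of CCR10, gave 928 and 1137 (log2 ratio 0.11), with 0.26 and 0.02 at its other probes. The sequences behind 2 of its 3 probes also belong to the copy *Ccl27b* and to other gene models in RefSeq, so its value may be that of several copies. *Ccl28*, which also binds CCR10, gave 3.78, not well above background, and 15.8, and no fold could be given. *Ccl1*, the ligand of CCR8, gave 21.9 and 7.38, the latter not well above background, at least 1.66-fold lower.

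Probes of many ligands lie close together, and the clusters differed. On chromosome 11, the 5 genes from *Ccl5* to *Ccl4* (chr11:83339296-83478111, mm9) were all higher and 4 were called. The cluster before it on the same chromosome, from *Ccl2* to *Ccl1* (chr11:81850650-81990510), had 3 of 6 genes with a ratio, of which 0 were called higher and 1, *Ccl2*, lower. On chromosome 5, *Cxcl5* and *Cxcl3* stood at the start of a cluster of 5 genes (chr5:91190490-91334593) and were called higher, while *Cxcl1* and *Cxcl2* at its other end were lower without a call. In the nearby cluster of *Cxcl9*, *Cxcl10* and *Cxcl11* (chr5:92752191-92788626), the first pair was called higher. On chromosome 8, *Cx3cl1* was called lower between *Ccl22* and *Ccl17* (chr8:97274709-97335829), which were not well above background. Outside the clusters, the probes of called genes lay at chr1:83115500-83115559 for *Ccl20*, chr5:96389861-96389920 for *Cxcl13* and chr13:56390078-56390137 for *Cxcl14*, also in mm9.

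**Figure D4:**
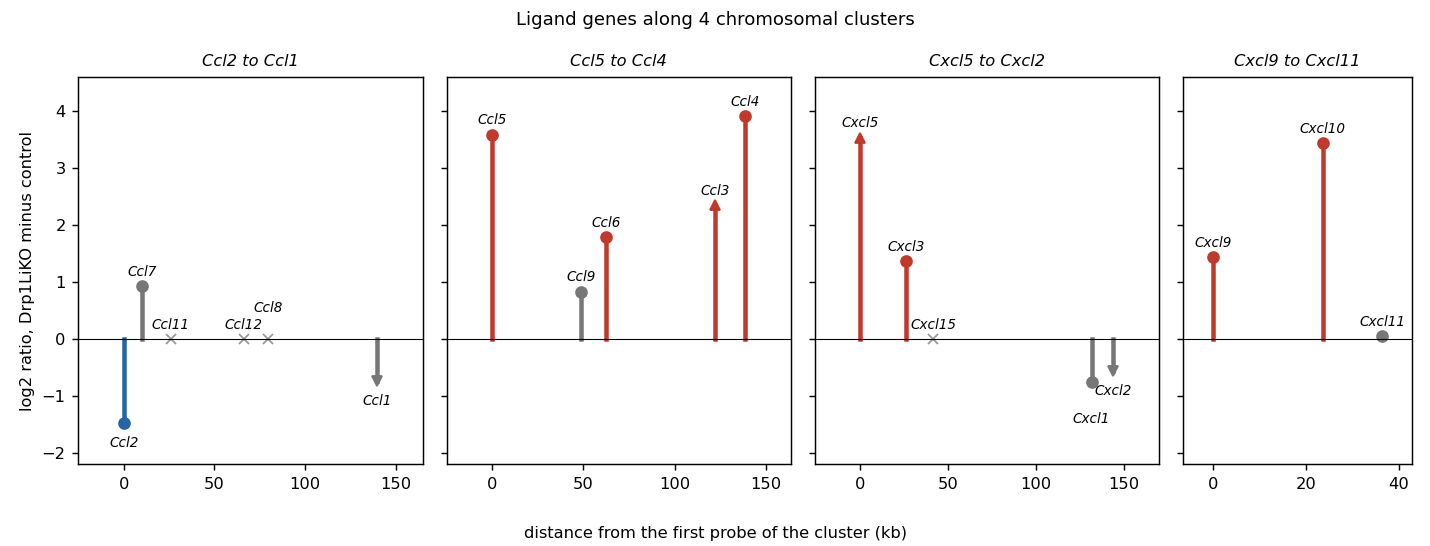
Log2 ratio of Drp1LiKO minus control of each ligand gene against the distance in kb of its probe from the first probe of the cluster, in 4 clusters, with red for called higher, blue for called lower, gray for not called, triangles for bounds and crosses at 0 for genes not well above background. All 5 genes of the cluster from Ccl5 to Ccl4 lie above 0, from 0.83 to 3.92.

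Other genes of the pathway were taken as lists of 55 genes, of which 33 were well above background on at least 1 array. Of these, 5 were called higher and 1 lower, against 3.5% and 2.81% of all genes. *Ackr2*, *Il6* and *Ifnb1*, called higher, passed the limit on the *Drp1*LiKO array only, and *Cxcr1*, called lower, on the control array only. Ratios of these genes are bounds whose direction was fixed by the array that passed. *Pf4*, a CXC chemokine of platelets whose name the rule did not match, gave 24.2 and 153 (log2 ratio 2.48) and was called higher, and its relative *Ppbp* was not well above background. Of 17 chemokine receptors, 14 were not well above background on either array. These included receptors of called ligands, namely *Ccr1* for *Ccl3* and *Ccl5*, *Cxcr3* for *Cxcl9* and *Cxcl10*, *Cxcr2* for *Cxcl3* and *Cxcl5*, *Ccr2* for *Ccl2*, *Ccr6* for *Ccl20*, *Cx3cr1* for *Cx3cl1* and *Cxcr5* for *Cxcl13*. The neutrophil receptor *Cxcr1* gave 37.6 and 3.48, the latter not well above background, a log2 ratio of at most -1.51, and was called lower. *Ccr8*, the receptor of *Ccl1*, gave 14.1, not well above background, and 24.8, and was not called. *Cxcr6*, the receptor of *Cxcl16*, gave 5.27, not well above background, and 20.0, and no fold could be given.

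Atypical receptors do not signal to movement, and several of them take up chemokines. Of the 5 listed, 2 were well above background on the control array and 4 on the *Drp1*LiKO array. All 4 were brighter on the *Drp1*LiKO array. *Ackr1* and *Ackr2* passed the limit on that array only, so their ratios are bounds and could only come out higher. *Ackr2*, which clears inflammatory CC ligands including *Ccl3*, *Ccl4* and *Ccl5*, gave 21.2, not well above background, and 84.3, a log2 ratio of at least 1.81, and was called higher. *Ackr3* gave 50.0 and 120 (log2 ratio 1.08) and *Ccrl2* gave 131 and 333 (log2 ratio 1.16), neither called. All 10 genes that cut chemokines or present them on heparan sulfate, such as *Dpp4*, *Adam17*, *Sdc1* and *Ext1*, were well above background and 0 were called. Their log2 ratios ran from -1.12 (*Ext1*) to 1.28 (*Sdc3*).

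Of 10 cytokines that induce chemokines, 1 was detected in the control and 4 in the *Drp1*LiKO culture. Of these 4, 2 were called higher, against 3.5% of all genes. *Il6* gave 3.97, not well above background, and 69.7, a log2 ratio of at least 1.75, and the other was *Ifnb1*, as given above. *Il6*, *Ifnb1* and *Il1b* passed the limit on the *Drp1*LiKO array only, so their ratios are bounds and could only come out higher. *Tnf* gave 122 on both arrays (log2 ratio -0.17) and *Il1b* gave 8.07, not well above background, and 36.9, not called. All 11 NF-κB, STAT and IRF genes of the list passed the background limit on both arrays, and 1 of them, *Stat2*, was called. The NF-κB subunit *Rela* gave 22452 and 23088 (log2 ratio -0.14), and *Nfkbia*, the inhibitor that NF-κB itself induces, gave 6625 and 3840 (log2 ratio -0.97).

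**Figure D5:**
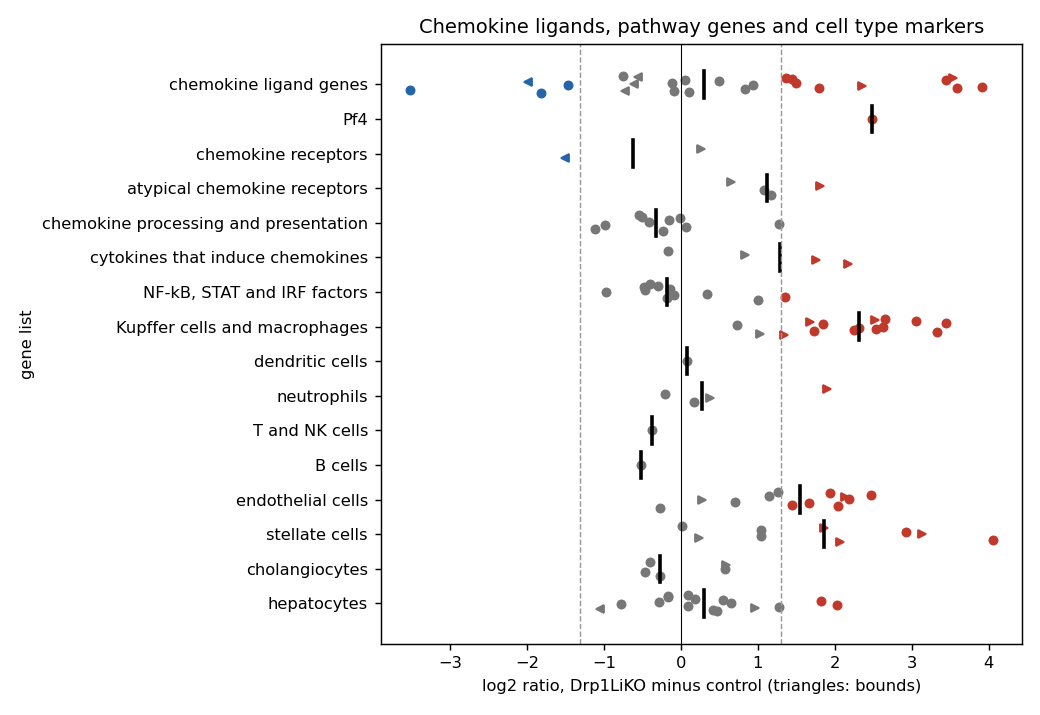
Log2 ratio of Drp1LiKO minus control of each gene with a ratio (points, triangles for bounds) in the chemokine ligand, pathway and cell type marker lists, with a black bar at the median of each list and dashed lines at the call limits of -1.31 and 1.30. The median is 0.30 for the ligands, 2.32 for markers of Kupffer cells and macrophages and 0.30 for hepatocyte markers.

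Markers of other liver cells were read beside these values. Of 13 endothelial markers, 10 were well above background in the control and 12 in the *Drp1*LiKO culture. Of these 12, 7 were called higher, against 3.5% of all genes, with a median log2 ratio of 1.55. *Lyve1*, 1 of those called, passed the limit on the *Drp1*LiKO array only. The brightest on the *Drp1*LiKO array were *Egfl7*, with 3773 and 6941, and *Ramp2*, with 111 and 517. Of 12 stellate cell markers, 5 were well above background in the control and 10 in the *Drp1*LiKO culture. Of these 10, 5 were called higher, against 3.5% of all genes, with a median of 1.86. *Pdgfrb*, *Col3a1* and *Lum*, among those called, passed the limit on the *Drp1*LiKO array only. Their ratios are bounds that could only come out higher, and that median is a bound too. The brightest stellate cell markers were *Acta2*, with 21437 and 24640 (log2 ratio 0.02), and *Dcn*, with 203 and 3848 (log2 ratio 4.06). Of 9 markers of T and NK cells, *Cd3e* (251 and 220) was the only gene well above background. Among 5 B cell markers this held for *Pax5* and *Ms4a1*, and among 6 dendritic cell markers for *Siglech* (26239 and 31597). Whether the *Siglech* signal comes from dendritic cells was not tested, and its probe was not checked for runs shared with other genes. Cholangiocyte markers had a median of -0.27 with 0 of 5 detected genes called, led by *Spp1* (24719 and 20346) and *Krt19* (4049 and 3482). The hepatocyte markers had a median of 0.30, and 2 of 16, *Ahsg* and *Cyp3a11*, were called higher. *Cx3cl1*, *Cxcl12* and *Cxcl14* can be made by endothelial or stellate cells. Of these ligands, *Cxcl14* was called higher, *Cx3cl1* was called lower, and *Cxcl12* had positive ratios without a call. Beside them, 7 of 12 detected endothelial and 5 of 10 detected stellate cell markers were called higher. The part of these cells in the ligand signals was not tested.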

How the data were processed

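Total RNA of control and *Drp1*LiKO primary hepatocytes was labeled with Cy3 and read on SurePrint G3 Mouse arrays of 60-mer probes. The authors deposited, per array, the Feature Extraction output (version 9.5.1.1 per the labels, whereas the file headers name another version), with the intensity of each spot as a raw mean, a local background and a processed signal from which background had been subtracted. A further deposited table holds normalized intensities, by a method not given in the sources used here. Its probes were ordered as on the array for control, but for *Drp1*LiKO the rank correlation with the array was 0.958, so the table served as an alternative only.

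Control spots and spots marked as outliers were left out, log2 processed signals were averaged over the spots of a probe, and each array was scaled to its 75th percentile, a signal of 313 for control and 356 for *Drp1*LiKO. Of 56600 probes, 48.2% and 52.1% were well above background, in most of their spots. Probes were kept if this held on at least 1 array, which left 30275 probes and 20165 genes. Dimmer signals were raised to the lowest signal well above background of their array (18.2 and 15.0), or kept where already higher, and a ratio with such a signal is a bound. Spot noise was the median SD of probes printed 10 times, by signal class, combined over both arrays. It was 0.16 and 0.22 below a signal of 64, 0.11 and 0.09 up to 1024, and 0.04 on both arrays above it, and the lowest class rests on 2 and 5 probes. The paper names a Z score of 2 and no reference population, and it was taken over the probes kept.

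Member genes and gene lists were chosen with earlier results of these data known. The values of 2 genes of the pathway lists are not reported here, and all counts leave them out. Every ligand with a probe well above background is named with its values. Pathway genes past the threshold, the receptors of called ligands and the brightest markers of each list are named too, and other pathway and marker genes were chosen after their values were seen. Positions of probes are in mm9, the build of the array files. Upstream sequences are from RefSeq, GRCm38.p6, and no coordinates were carried between the builds. Steps were tested on simulated data with known changes. Alternatives were normexp background correction with an offset of 50, quantile normalization, spike-in scaling (7 probes), the deposited normalized intensities, a stricter filter on dim probes or none, outlier spots kept, dim signals without a floor, a 2-fold threshold, a robust Z score and the median over the probes of each gene. R 4.3.3 with limma 3.58.1 was used, and Python 3.11.15 with matplotlib 3.10.9, numpy 2.4.6 and pandas 2.3.3.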

Additional observations from a re-analysis of the deposited data

How the results depend on the processing

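Over 11 alternatives, no ligand with a ratio changed direction. *Ccl3*, *Ccl4*, *Ccl5*, *Cxcl5*, *Cxcl10*, *Ccl20* and *Cx3cl1* were called under each alternative that gave them a value, though with other ratios. With normexp correction the log2 ratio was 0.95 for *Ccl3*, 2.51 for *Ccl4*, 1.72 for *Cxcl5*, -2.67 for *Ccl20* and -0.86 for *Cx3cl1*, with limits of 0.79 and -0.86. With the median of probes it was at least 1.97 for *Cxcl10*. With the deposited normalized intensities *Ccl2* (-1.47, with the lower limit at -1.48), *Cxcl3* (0.73), *Cxcl9* (1.30, with the upper limit at 1.31), *Cxcl13* (-1.02) and *Cxcl14* (1.25) were not called, which left 6 ligands called higher and 2 called lower. Without a floor for dim signals the limits were 1.84 and -1.75, so that *Ccl2*, *Ccl6*, *Cxcl3*, *Cxcl9* and *Cxcl14* were not called at unchanged ratios, and *Ccl1* and *Cxcl17* were called lower and *Ccl28* higher. With normexp correction *Cxcl3* (0.41) and *Cxcl13* (-0.66) were not called, and with the median of probes *Cxcl14* (0.72) was not. That median takes in the other *Cxcl14* probe, for which no fold could be given. *Ccl7* was called higher with normexp correction, with no filter and with the robust Z score, and *Ccl9* with the robust Z score.

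The count of ligands called higher ran from 6 with the deposited intensities, where 2.72% of all genes were, to 11 with the robust Z score, where 8.54% were. The count called lower ran from 2 to 5, with 2.29% of all genes called lower in the former setting (deposited intensities) and 2.53% in the latter (no floor). With only probes well above background on both arrays the median log2 ratio of the ligands was 0.66, since the bounds are left out. Pathway genes called numbered 10 with a 2-fold threshold, 14 with the robust Z score and 10 with no filter on dim probes, as against 6, while 9.91%, 15.7% and 5.27% of all genes were called, as against 6.3%. Of all genes called, 55.5% were higher, and 69.4% with no filter on dim probes. The median log2 ratio of all genes stayed between -0.05 and 0.00. No paired analysis was possible because each genotype has 1 array. The brighter signal of *Cxcl2*, *Cxcl3*, *Cxcl13*, *Cxcl17*, *Ccl1* and *Ccl28* lies below 64, where spot noise is largest.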

Other observations

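The deposited normalized intensities of some ligand probes differed from the arrays in the *Drp1*LiKO column. *Ccl3* had a value of 161 in that column and a signal of 106 on the array, *Ccl6* had 532 and 378, *Cxcl13* had 29.1 and 14.0, and *Cxcl3* had 37.1 and 57.5. In the control column the same genes had 13.7, 105, 59.1 and 22.3, against signals of 12.1, 96.1, 52.1 and 19.6. The log2 ratios in the deposited table were 3.55 for *Ccl3*, 2.34 for *Ccl6*, -1.02 for *Cxcl13* and 0.73 for *Cxcl3*, without a floor for dim signals.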
